A study of Mus musculus with 12 samples.

Results

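A set of 9 genes that plasma cells need or carry was followed in mandibular lymph nodes: the regulators Prdm1, Irf4 and Xbp1, the elongation factor Ell2, the surface proteins Sdc1 and Tnfrsf17, and the endoplasmic reticulum (ER) proteins Mzb1, Derl3 and Creld2. They were taken by name from 56941 gene IDs in the deposited table, each symbol matched 1 ID, and all 9 passed the filter on low counts that 20034 genes passed. The nodes came from mice lacking the microRNA miR-451a (knockout, KO) or from wild-type mice (WT), all sensitized with DNFB (1-fluoro-2,4-dinitrobenzene), a contact allergen, 100 µl at 0.5% on the abdomen on days 0, 1 and 2. KO_DTH and WT_DTH mice received 20 µl of 1% DNFB on 1 ear, the left, on day 9, and their nodes were taken 24 hours later, on day 10. KO_se and WT_se nodes were taken on day 9 without that challenge. Each of the 4 groups held 3 libraries, 12 in all, and the series asks how miR-451a bears on the delayed-type hypersensitivity (DTH) response to DNFB. Strain, age and sex are not given in the sources used here, and neither is how the knockout was made or whether replicate libraries stem from different mice. A p-value here therefore measures only how far the libraries spread, which may be technical. Challenge and day of harvest cannot be told apart, because every challenged node was taken a day later. In whole nodes, more cells of a type and more RNA per cell cannot be told apart either.

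A B cell that becomes an antibody-secreting plasma cell changes from sensing antigen to exporting protein. IRF4 starts the change, BLIMP-1 (encoded by Prdm1) shuts the B cell programme down, and XBP1, made active by splicing of its messenger RNA under ER stress, enlarges the ER. ELL2 speeds the use of the secretory immunoglobulin poly(A) site, syndecan-1 (Sdc1, CD138) and BCMA (Tnfrsf17) mark the cell surface, and the ER proteins fold, inspect and dispose of the antibody chains. None of these genes belongs to plasma cells alone: activated T cells carry IRF4 and BLIMP-1, epithelium carries syndecan-1, and salivary acinar cells are professional secretors that use XBP1.

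After sensitization alone, knockout nodes carried more RNA of most of the 9 genes than wild-type nodes, with Mzb1 2.50-fold, Prdm1 1.94-fold, Sdc1 1.64-fold, Irf4 1.60-fold and Creld2 1.43-fold higher. Xbp1 went the other way and stood at 0.549 of its wild-type level. In wild-type nodes, challenge went with 3.25 times as much Prdm1 and with more Creld2, Mzb1 and Irf4, while Xbp1 and Derl3 were lower. In challenged nodes none of the 9 genes passed the test between genotypes. Ell2 passed in none of the comparisons. Levels are given as CPM (counts scaled to a common library size with TMM factors), and a gene is called higher or lower where its edgeR quasi-likelihood p, adjusted by Benjamini-Hochberg over the 20034 genes, was below 0.05.

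**Figure D1:**
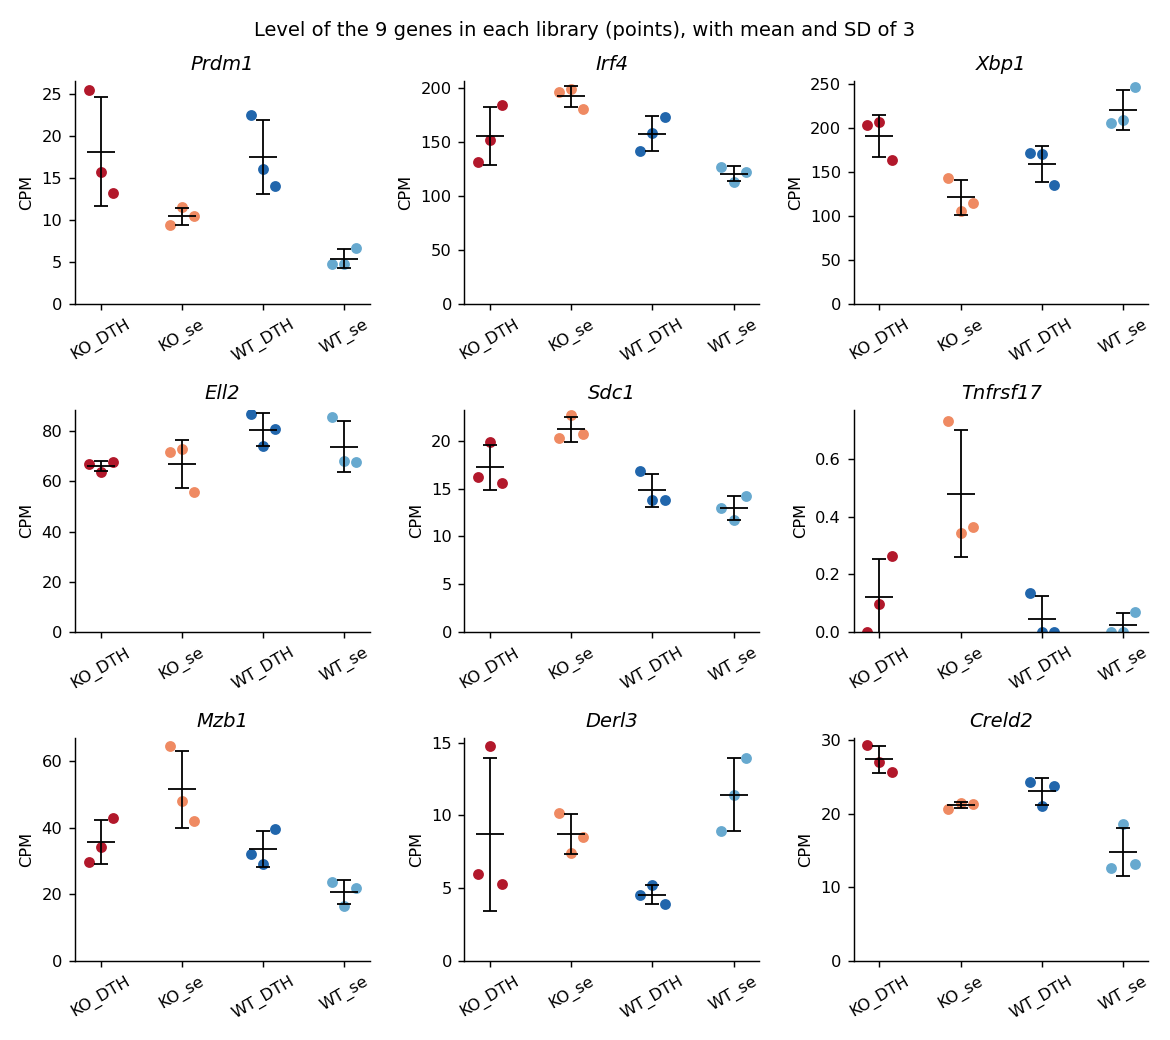
Level in CPM (vertical axes, each from 0) of the 9 genes in KO_DTH, KO_se, WT_DTH and WT_se nodes. Each point is 1 library and the bars are the mean and SD of 3. In Mzb1, Irf4 and Sdc1 the KO_se points stand above all WT_se points, and in Xbp1 they stand below them.

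Library totals lay between 36946696 and 58405576 estimated counts. RNA of salivary gland, which lies beside this node, was present in each: 20 salivary genes took 7.38 ± 2.91% of counts in KO_DTH, 4.11 ± 1.85% in KO_se, 2.26 ± 0.586% in WT_DTH and 9.58 ± 3.71% in WT_se libraries (mean ± SD, n = 3 each). Among the salivary markers, Smgc was at 0 in WT_DTH and no other was at 0 in a whole group. Markers of B cells, T cells, myeloid cells, dendritic cells and node stroma were detected in every group. The knockout label had no check by the targeted gene, since Mir451a was not analysed here.

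Prdm1 (ENSMUSG00000038151) encodes BLIMP-1, the repressor without which plasma cells do not form. It stood at 25.5, 15.7 and 13.2 CPM in KO_DTH libraries, 9.44, 11.5 and 10.4 in KO_se, 22.5, 16.1 and 14.1 in WT_DTH and 4.78, 4.71 and 6.67 in WT_se. Both challenged groups lay above both sensitized groups, and KO_se lay above WT_se with no overlap. Prdm1 rose in KO_se against WT_se (log2 fold change 0.95 ± 0.25 SE, edgeR adjusted p = 0.0462) and in WT_DTH against WT_se (1.70 ± 0.25, edgeR adjusted p = 0.000748). Challenge in the knockout gave 0.80 ± 0.24 (edgeR adjusted p = 0.0587), which did not pass. The rise in KO_se did not pass whichever 1 of the 6 libraries was dropped (0.87 to 1.14, edgeR adjusted p 0.0537 to 0.141), and the rise on challenge in wild type was kept in all 6. Without KO_DTH replicate 3 the knockout's challenge effect passed (0.97, edgeR adjusted p = 0.0303).

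BLIMP-1 is also made by myeloid and activated T cells, whose markers were measured beside it. Of 8 monocyte and macrophage genes 7 rose in WT_DTH against WT_se and 6 in KO_DTH against KO_se, and their summed level was 1151 to 1426 CPM in KO_DTH, 574 to 793 in KO_se, 1079 to 1829 in WT_DTH and 448 to 570 in WT_se. Those ranges fall in the same order as Prdm1, in that both challenged groups stand above both sensitized ones. In KO_se against WT_se none of the 8 passed by edgeR, and neither did any of 8 activated T cell genes. The part of these cells in the Prdm1 values was not tested.

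Irf4 (ENSMUSG00000021356), the factor that acts early in activated B and T cells and at high level commits B cells to secretion, stood at 131, 152 and 185 CPM in KO_DTH libraries, 197, 199 and 181 in KO_se, 141, 159 and 173 in WT_DTH and 126, 113 and 122 in WT_se. WT_se was the lowest group and overlapped none of the others, the nearest library being KO_DTH replicate 1. Irf4 rose in KO_se against WT_se (0.67 ± 0.12 in log2, edgeR adjusted p = 0.00704), a call kept in all 6 fits without 1 library. It rose less far in WT_DTH against WT_se (0.39 ± 0.12, edgeR adjusted p = 0.033), and that call was kept only without WT_DTH replicate 1 (0.50). Without WT_se replicate 1, 2 or 3 or WT_DTH replicate 2 or 3 its edgeR adjusted p was 0.0529 to 0.11. Challenge in the knockout gave −0.30 ± 0.12 (edgeR adjusted p = 0.123), which passed without KO_DTH replicate 3 (−0.45, edgeR adjusted p = 0.0225). Between challenged genotypes the fold was −0.02 ± 0.12 (edgeR adjusted p = 0.978).

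Xbp1 (ENSMUSG00000020484) encodes the factor that drives ER chaperone genes in secretory cells. It stood at 204, 207 and 164 CPM in KO_DTH libraries, 144, 106 and 114 in KO_se, 172, 170 and 135 in WT_DTH and 206, 209 and 246 in WT_se. KO_se and WT_DTH both lay below WT_se with no overlap, and KO_DTH lay above KO_se. Xbp1 fell in KO_se against WT_se (−0.86 ± 0.14, edgeR adjusted p = 0.00488), and still passed whichever 1 of the 6 libraries was dropped. It rose in KO_DTH against KO_se (0.66 ± 0.14, edgeR adjusted p = 0.00975) but not once KO_se replicate 2 was dropped (0.57, edgeR adjusted p = 0.0515). It fell in WT_DTH against WT_se (−0.47 ± 0.14, edgeR adjusted p = 0.0304), a call kept without WT_se replicate 1 (−0.52) and lost in the other fits that left out 1 library (−0.50 to −0.33, edgeR adjusted p 0.0533 to 0.164). These are counts of the whole gene, so spliced and unspliced Xbp1 RNA are added together.

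Ell2 (ENSMUSG00000001542), the elongation factor, stood at 66.9, 63.8 and 67.6 CPM in KO_DTH, 71.7, 72.7 and 55.7 in KO_se, 86.7, 73.9 and 80.9 in WT_DTH and 85.5, 68.0 and 67.6 in WT_se. KO_DTH lay below WT_DTH without overlap, by −0.28 ± 0.12 in log2 (edgeR adjusted p = 0.281), and in the other 3 comparisons of 2 groups the libraries overlapped. Of 11 partners of ELL2 in transcript elongation, Ell3 rose (0.87 ± 0.19, edgeR adjusted p = 0.0191) and Aff1 fell (−0.44 ± 0.10, edgeR adjusted p = 0.0241) in KO_se against WT_se.

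Sdc1 (ENSMUSG00000020592), the proteoglycan CD138 by which plasma cells are sorted, stood at 16.2, 19.9 and 15.6 CPM in KO_DTH, 20.3, 22.7 and 20.7 in KO_se, 16.8, 13.8 and 13.8 in WT_DTH and 12.9, 11.7 and 14.2 in WT_se. Every KO_se library exceeded all 9 libraries of the other groups. Sdc1 rose in KO_se against WT_se (0.71 ± 0.13, edgeR adjusted p = 0.00935), which held whichever library was dropped, and passed in no other comparison. Salivary and squamous epithelium also make syndecan-1, and their part in the Sdc1 values was not tested. Of 20 salivary and 7 tested squamous and myoepithelial genes none rose in KO_se against WT_se by edgeR. Only Acta2, of the second list, fell (−1.37 ± 0.36, edgeR adjusted p = 0.0476). The medians of the lists were −1.35 and −1.24 in log2, and the squamous marker Krt1 was at 0 in both groups.

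Tnfrsf17 (ENSMUSG00000022496) encodes BCMA, the receptor through which the cytokine APRIL keeps plasma cells alive, and was close to the limit of detection. It held 0, 4 and 11 counts in KO_DTH, 41, 16 and 17 in KO_se, 6, 0 and 0 in WT_DTH and 0, 0 and 3 in WT_se. Each KO_se library was above every library of the other groups. The gene passed the filter on low counts through KO_se, which held 74 of its counts, so its comparisons with that group are given as counts, with no fold. No comparison called it by edgeR.

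Mzb1 (ENSMUSG00000024353) encodes an ER chaperone that helps assemble IgM in marginal zone and B1 B cells and in plasma cells. It stood at 29.8, 34.3 and 43.1 CPM in KO_DTH, 64.7, 47.9 and 42.2 in KO_se, 32.2, 29.1 and 39.6 in WT_DTH and 23.6, 16.6 and 21.9 in WT_se. WT_se lay below all other groups with no overlap. Mzb1 had the smallest p of the 9 genes in KO_se against WT_se (1.32 ± 0.19, edgeR adjusted p = 0.00276) and was called in all 6 fits without 1 library (1.13 to 1.45). It rose in WT_DTH against WT_se (0.70 ± 0.19, edgeR adjusted p = 0.0214), a call lost without WT_se replicate 2 (0.57, edgeR adjusted p = 0.0847) or WT_DTH replicate 3 (0.60, edgeR adjusted p = 0.0751). Challenge in the knockout gave −0.53 ± 0.19 (edgeR adjusted p = 0.0968).

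Creld2 and Derl3 are shown with their promoters, because both are effectors of the unfolded protein response and their promoter windows hold the same element. The ER stress response element (ERSE), to which NF-Y and either ATF6 or XBP1 bind, was searched on both strands as CCAAT and CCACG with 9 bases of any kind between them. Among 32851 RefSeq windows of 300 bases, 250 before and 50 after an annotated start, 39 held it (0.119%). Of the 8 of the 9 genes that have a window, Derl3 and Creld2 held 1 each, and the windows of Prdm1, Irf4, Xbp1, Sdc1, Ell2 and Tnfrsf17 did not have these letters. A related element, ERSE-II (ATTGG and CCACG with 1 base of any kind between them), and the XBP1 element core TGACGTGG were in none of the 8 windows, against 0.0365% and 0.676% of all windows. A match is a stretch of letters and no measured binding. The windows are given 5′ to 3′ on build GRCm38.p6, both on the plus strand, at chr10:75893148-75893447 for Derl3 and chr15:88819396-88819695 for Creld2. Capitals mark the fixed letters of the ERSE, which lies on the minus strand in both (from −156 to −138 in Derl3 and from −126 to −108 in Creld2, counted from the start site).
Derl3: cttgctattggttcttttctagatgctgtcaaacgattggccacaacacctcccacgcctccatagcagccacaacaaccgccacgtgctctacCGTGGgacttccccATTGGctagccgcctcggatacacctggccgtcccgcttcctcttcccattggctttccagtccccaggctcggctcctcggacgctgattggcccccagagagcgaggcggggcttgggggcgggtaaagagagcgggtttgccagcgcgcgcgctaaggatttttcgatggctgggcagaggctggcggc
Creld2: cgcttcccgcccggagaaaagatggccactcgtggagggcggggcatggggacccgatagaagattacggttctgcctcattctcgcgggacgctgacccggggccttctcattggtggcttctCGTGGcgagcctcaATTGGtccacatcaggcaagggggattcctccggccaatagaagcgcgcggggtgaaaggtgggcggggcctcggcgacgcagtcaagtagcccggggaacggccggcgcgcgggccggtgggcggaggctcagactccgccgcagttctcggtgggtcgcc

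Creld2 (ENSMUSG00000023272), a secreted ER stress protein with disulfide isomerase activity, stood at 29.4, 27.0 and 25.7 CPM in KO_DTH, 20.7, 21.5 and 21.3 in KO_se, 24.3, 21.0 and 23.8 in WT_DTH and 12.7, 18.6 and 13.2 in WT_se. KO_DTH lay above the other 3 groups with no overlap and WT_se lay below them. Creld2 rose in WT_DTH against WT_se (0.63 ± 0.14, edgeR adjusted p = 0.0064), a call kept in all 6 fits without 1 library. It rose in KO_se against WT_se (0.51 ± 0.14, edgeR adjusted p = 0.0472), a call kept only without WT_se replicate 2 (0.71). Leaving out WT_se replicate 1 or 3 or any 1 KO_se library gave 0.41 to 0.53 (edgeR adjusted p 0.095 to 0.152).

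Derl3 (ENSMUSG00000009092), a derlin that helps pull misfolded proteins out of the ER for degradation, did not follow Creld2. It stood at 5.99, 14.8 and 5.30 CPM in KO_DTH, 10.2, 7.42 and 8.53 in KO_se, 4.55, 5.18 and 3.92 in WT_DTH and 8.89, 11.4 and 13.9 in WT_se. All WT_DTH libraries lay below all others, and KO_DTH replicate 2 stood far above its fellows. The salivary share was 9.42% in that library, 8.68% in KO_DTH replicate 1 and 4.04% in KO_DTH replicate 3. The part of gland RNA in these Derl3 levels was not tested. Derl3 fell in WT_DTH against WT_se (−1.33 ± 0.33, edgeR adjusted p = 0.015), a call lost without WT_se replicate 3 (−1.16, edgeR adjusted p = 0.0562) or WT_DTH replicate 3 (−1.19, edgeR adjusted p = 0.0673). In KO_se against WT_se it gave −0.39 ± 0.33 (edgeR adjusted p = 0.541) and in KO_DTH against WT_DTH 0.93 ± 0.33 (edgeR adjusted p = 0.212). The libraries of KO_DTH and WT_DTH did not overlap.

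**Figure D2:**
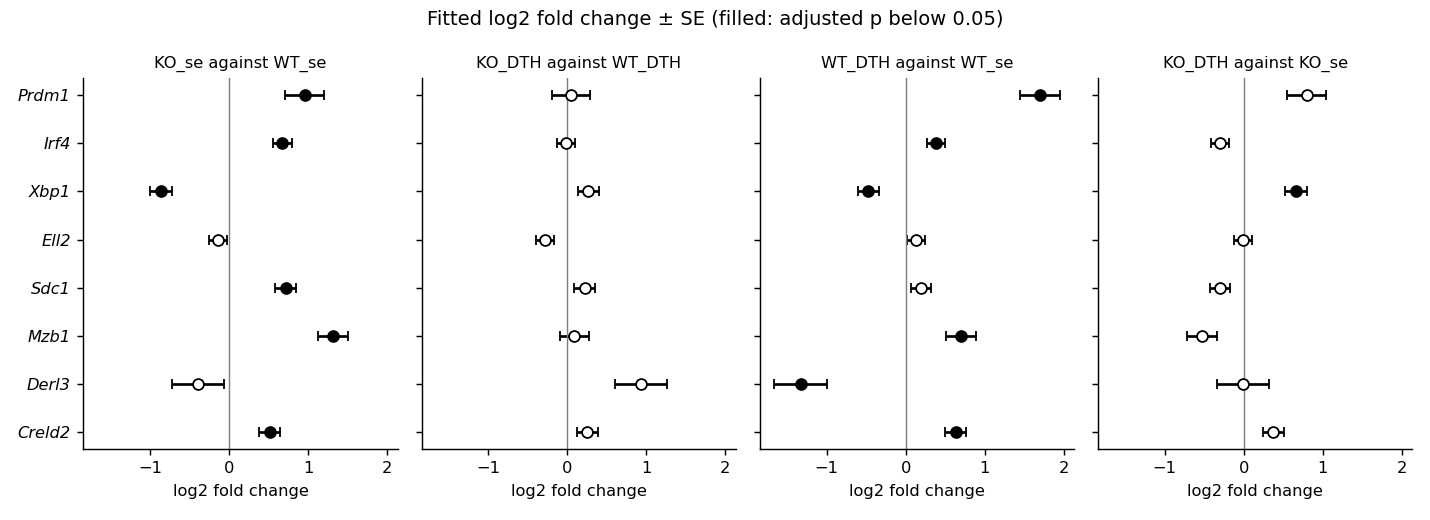
Fitted log2 fold change ± SE (horizontal axes) of 8 of the 9 genes in 4 comparisons, Tnfrsf17 left out for its few counts. Filled points passed the edgeR test. Mzb1 at 1.32 and Xbp1 at −0.86 lie on opposite sides of 0 in KO_se against WT_se, and no point is filled in KO_DTH against WT_DTH.

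Set against all genes, 6 of the 9 passed in KO_se against WT_se, 5 higher and 1 lower, where 5.17% of all genes tested were called, 3.76% higher and 1.40% lower. The libraries of the 2 groups did not overlap for 7 of the 9, as for 28.0% of all genes. The 7 include Tnfrsf17, which passed the filter on low counts through KO_se, so its separation is no separate result. Without Tnfrsf17, the log2 fold changes of the other 8 ran from −0.86 (Xbp1) to 1.32 (Mzb1), with Derl3 and Ell2 also negative. The median over all genes was −0.01. Cell cycle genes moved in the same comparison: all 12 rose, with a summed level of 456 to 567 CPM in KO_se and 110 to 215 in WT_se, and 2 of 6 B cell markers rose while 1 of 6 T cell markers fell. Their part in the rise of the 9 genes was not tested. In KO_DTH against WT_DTH 0 of 9 passed by edgeR, with 0.599% of all genes called, 0.514% higher and 0.0849% lower. The groups did not overlap for 3 of the 9 (Derl3, Creld2 and Ell2), as for 18.8% of all genes. Derl3 and Ell2, 2 of the 9, had an unadjusted edgeR p below 0.05 there, as had 2832 of all 20034 genes. The DESeq2 Wald test also called 0 of the 9, and 932 of all 20034 genes. The size of the 8 folds in that comparison without Tnfrsf17 ran from −0.28 to 0.93, with SEs of 0.12 to 0.33.

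In WT_DTH against WT_se 6 of the 9 passed, 4 higher and 2 lower, beside 18.7% of all genes, 9.77% higher and 8.97% lower. The groups did not overlap for 6 of the 9, as for 35.5% of all genes. In the same comparison all 13 mitochondrially encoded genes fell (median −2.07), taking 5.125 ± 0.733% of counts in WT_DTH and 17.003 ± 2.826% in WT_se (SD, n = 3 each). All 6 T cell markers fell (median −0.72) and 4 of 6 B cell markers rose (median 0.61). Their part in the values of the 9 genes was not tested. In KO_DTH against KO_se 1 of the 9 passed, Xbp1, where 9.67% of all genes did, 5.81% higher and 3.86% lower, so the share of the 9 genes was close to that of all genes. The groups did not overlap for 5 of the 9, as for 30.1% of all genes. The 5 include Tnfrsf17, which passed the filter on low counts through KO_se. The 2 comparisons with WT_se share those libraries, as do the 2 with KO_se.

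Whether challenge moved a gene differently in the knockout than in wild type was tested as an interaction, for which 2.11% of all genes were called, 1.67% higher and 0.439% lower. Xbp1 (1.13 ± 0.19 in log2, edgeR adjusted p = 0.0237), Mzb1 (−1.23 ± 0.27, edgeR adjusted p = 0.038) and Irf4 (−0.69 ± 0.16, edgeR adjusted p = 0.0494) passed. For Xbp1 the challenge effect was 0.66 in the knockout and −0.47 in wild type, so the gene moved in opposite directions. For Mzb1 it was −0.53 in the knockout and 0.70 in wild type, and for Irf4 −0.30 in the knockout and 0.39 in wild type. Prdm1 (−0.90 ± 0.35, edgeR adjusted p = 0.206), Sdc1 (−0.50 ± 0.18, edgeR adjusted p = 0.189) and Derl3 (1.32 ± 0.47, edgeR adjusted p = 0.169) did not pass. These 3 calls stood close to the threshold. The Irf4 call was kept only without KO_DTH replicate 3 (−0.88) or KO_se replicate 3 (−0.74), and without any other 1 library its edgeR adjusted p was 0.0541 to 0.127. The Mzb1 call was kept without those 2, WT_DTH replicate 2 or WT_se replicate 1 (−1.44 to −1.34), and the other 8 fits gave 0.0612 to 0.0933. The Xbp1 call was lost without WT_se replicate 3, WT_DTH replicate 3, KO_se replicate 1 or 2 or KO_DTH replicate 1 or 2 (0.98 to 1.27, edgeR adjusted p 0.0543 to 0.0719). In the same interaction 12 of 20 salivary genes rose (median 4.21). With 2 salivary components as covariates the interaction was 0.77 ± 0.40 for Xbp1, −0.94 ± 0.59 for Mzb1 and −0.59 ± 0.35 for Irf4, and with the salivary score 0.50 ± 0.31, −0.52 ± 0.45 and −0.23 ± 0.26 in the same order. None of the 3 passed in either fit by edgeR, and neither did any other of the 20034 genes, of which 1064 with the components and 1045 with the score had an unadjusted p below 0.05.

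Other plasma cell genes went with Mzb1 in part. Of 12 such genes 3 rose and 1 fell in KO_se against WT_se (median 0.31, against −0.01 over all genes). With either salivary covariate none of the 12 passed by edgeR, at medians of 0.32 with the components and 0.31 with the score. Jchain, the peptide that joins secreted IgA and IgM units, averaged 165 ± 69.2 CPM in KO_se and 34.8 ± 12.3 in WT_se (SD, n = 3 each; log2 fold change 2.24 ± 0.44, edgeR adjusted p = 0.0131). Tnfrsf13b, which encodes the BAFF and APRIL receptor TACI, averaged 62.6 ± 6.04 CPM in KO_se and 38.2 ± 4.74 in WT_se (0.71 ± 0.12, edgeR adjusted p = 0.00618). Ccr10, a homing receptor of IgA plasmablasts, rose by 2.11 ± 0.56 (edgeR adjusted p = 0.0478). Its level was low, with means of 2.02 CPM in KO_DTH, 2.70 in KO_se, 0.282 in WT_DTH and 0.628 in WT_se. The knockout mean of Ccr10 was thus higher in challenged nodes too, where none of the 12 passed by edgeR. Zbtb20, a factor needed by long-lived plasma cells, fell by 0.53 (SE 0.13, edgeR adjusted p = 0.0355). On challenge in the knockout Jchain (−2.01 ± 0.43, edgeR adjusted p = 0.0117) and Tnfrsf13b (−0.81 ± 0.12, edgeR adjusted p = 0.0011) fell. In KO_DTH against KO_se none of the 12 passed by edgeR with the components, while 2 fell with the score.

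B cell genes that are shut down in plasma cells were not lower. Of 13 B cell genes of this kind 5 rose and none fell in KO_se against WT_se by edgeR (median 0.55), among them the CD20 gene Ms4a1 (0.85 ± 0.14, edgeR adjusted p = 0.00527) and Ciita, the master regulator of MHC class II genes (0.69 ± 0.16, edgeR adjusted p = 0.0321). In WT_DTH against WT_se 9 of the 13 rose (median 0.69), with Bcl6, the germinal centre repressor that opposes BLIMP-1, at 0.80 ± 0.13 (edgeR adjusted p = 0.00152). With either salivary covariate none of the 13 passed by edgeR in either comparison. Their medians were then 0.37 with the components and 0.18 with the score in KO_se against WT_se, and 0.37 and 0.23 in WT_DTH against WT_se. General B cell markers moved alongside, 2 of 6 rising in KO_se against WT_se and 4 of 6 in WT_DTH against WT_se. Whole nodes hold both resting B cells and plasma cells, and the 2 are not separated here. Among 10 partner factors, Atf6, the ER stress sensor that shares the ERSE with XBP1, rose by 0.32 ± 0.09 in KO_se against WT_se (edgeR adjusted p = 0.0493). In WT_DTH against WT_se Atf6 rose by 0.61 ± 0.09 (edgeR adjusted p = 0.000539). None of the 10 passed in either comparison by edgeR with the 2 components. With the score, 1 of the 10 rose in WT_DTH against WT_se and none passed in KO_se against WT_se.

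Among genes of the secretory pathway, folding genes held most of the calls. Of 16 ER chaperones and folding enzymes 6 rose and none fell in KO_se against WT_se (median 0.23), whereas Xbp1 was lower there. They include the disulfide isomerases Pdia6 (0.56 ± 0.07, edgeR adjusted p = 0.00172) and Pdia4 (0.61 ± 0.10, edgeR adjusted p = 0.00672), the chaperone Hsp90b1 (0.52 ± 0.09, edgeR adjusted p = 0.00751) and Sdf2l1, a regulator of the BiP cycle (0.78 ± 0.15, edgeR adjusted p = 0.0141). With 2 salivary components as covariates 3 of the 16 rose in this comparison. Of 18 genes of ER entry 2 rose and 1 fell (median 0.11). No gene of 15 of ER-associated degradation (median 0.01), of 14 of ER to Golgi transport (−0.07) or of 10 of the PERK and ATF4 arm (−0.43) passed by edgeR. In WT_DTH against WT_se 12 of the 16 folding genes rose and 2 fell, Dnajc3 and Dnajb9 (median 0.38, where 18.7% of all genes passed, and 0 of 16 passed with the 2 components, at a median of 0.41), with Sdf2l1 at 0.89 ± 0.15 (edgeR adjusted p = 0.00201) and Pdia6 at 0.57 ± 0.07 (edgeR adjusted p = 0.000221). The ubiquitin ligase Syvn1 of ER degradation rose by 0.59 ± 0.10 (edgeR adjusted p = 0.00157). Asns, an ATF4 target that makes asparagine, fell by 2.30 (SE 0.41, edgeR adjusted p = 0.00227). No gene of ER degradation or of the PERK and ATF4 arm passed in WT_DTH against WT_se by edgeR with either salivary covariate. Of the 14 promoter windows of folding genes 7 held the ERSE, against 0.119% of all windows, and of 15 windows of other plasma cell genes 0 did.

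**Figure D3:**
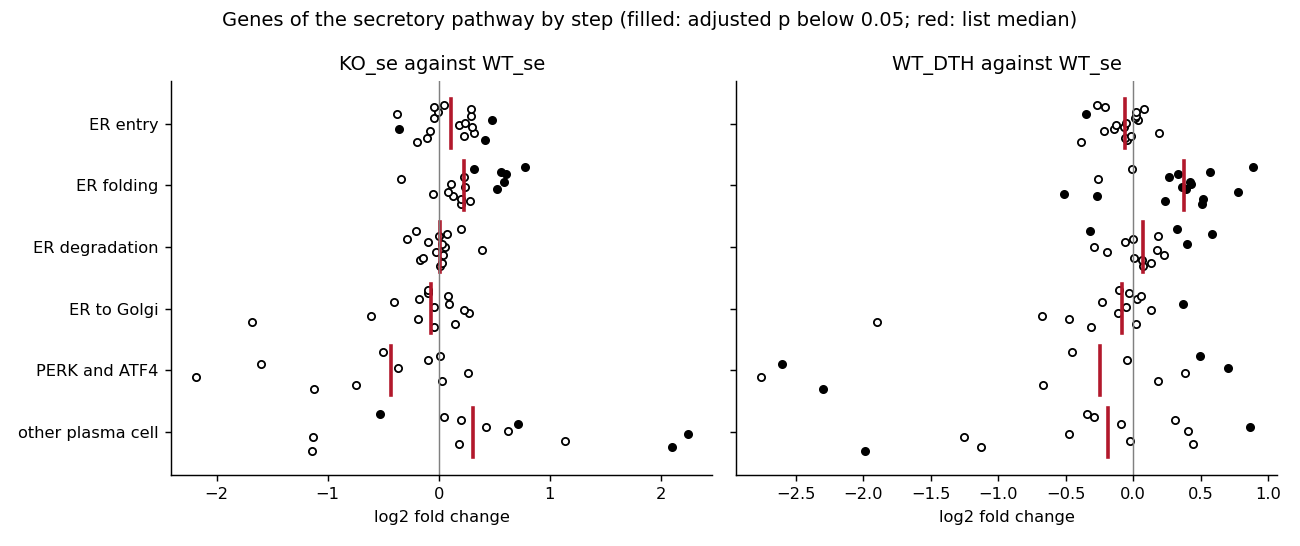
Log2 fold change (horizontal axes) of genes at each step of the secretory pathway, 1 point per gene, in KO_se against WT_se and WT_DTH against WT_se. Filled points passed the edgeR test and red bars are list medians, which for ER folding stand at 0.23 and 0.38.

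Of 12 tested ligands and receptors of plasma cell survival, such as Cxcl12, Tnfsf13 and Il6, none passed in KO_se against WT_se by edgeR (median 0.16). In WT_DTH against WT_se the costimulatory ligands Cd80 (1.71 ± 0.27, edgeR adjusted p = 0.00102) and Cd86 (1.30 ± 0.16, edgeR adjusted p = 0.000236) and the BAFF receptor gene Tnfrsf13c (0.59 ± 0.18, edgeR adjusted p = 0.0382) rose. Cxcl12, the stromal chemokine that holds plasma cells in their niche, fell by 1.39 (SE 0.35, edgeR adjusted p = 0.0165). None of the 12 passed in WT_DTH against WT_se by edgeR with either salivary covariate. Their median was 0.26 without covariates, 0.20 with the components and 0.17 with the score. Of the 6 node stroma markers 2 fell in the same comparison.

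The part of gland RNA in the values of the 9 genes was not tested as a cause. The salivary share and fits with salivary covariates are given beside the values. By group mean, Derl3 stood at 8.68 CPM in KO_DTH, 8.71 in KO_se, 4.55 in WT_DTH and 11.4 in WT_se, and the salivary share was lowest in WT_DTH and highest in WT_se as well. Xbp1 did not keep that order: its mean was lowest in KO_se, at 121 CPM, and stood at 159 CPM in WT_DTH. Bhlha15, a secretory regulator of both acinar and plasma cells, fell by 1.99 in log2 in WT_DTH against WT_se (SE 0.44, edgeR adjusted p = 0.00822), where 17 of 20 salivary genes fell. Once 2 salivary components entered the model as covariates, the folds of Derl3 and Xbp1 in that comparison were −0.08 ± 0.38 and −0.13 ± 0.24, against −1.33 and −0.47 without, and those of Mzb1 and Irf4 were 0.37 ± 0.35 and 0.21 ± 0.20. Those of Prdm1 and Creld2 were 1.80 ± 0.51 and 0.53 ± 0.25. No gene of the 9 passed in that fit by edgeR, in which SEs were larger and the covariates differed between the groups. Of all 20034 genes 157 passed in it, against 3755 without covariates.

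**Figure D4:**
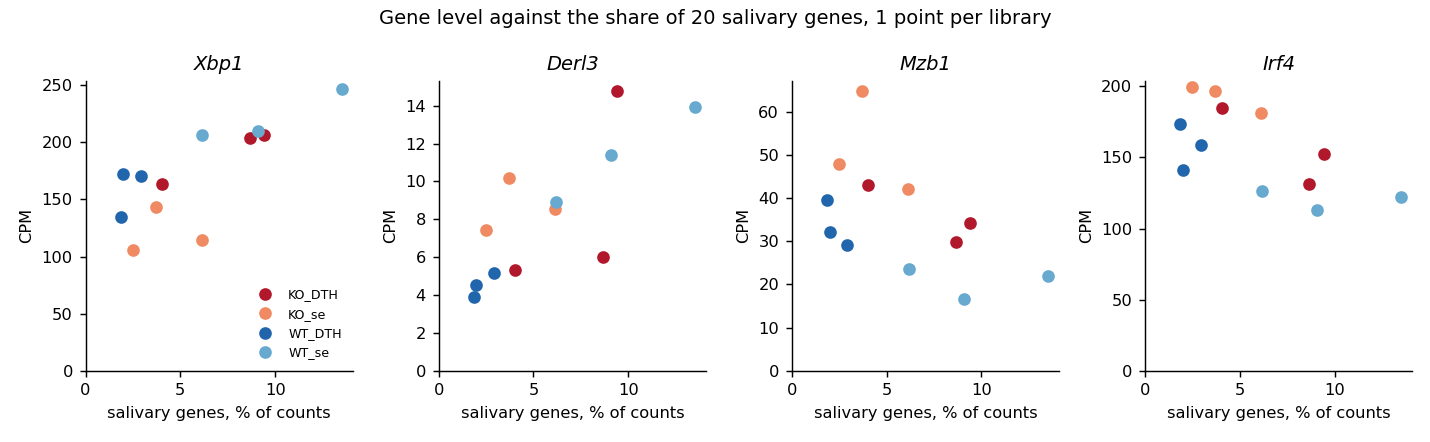
Level in CPM (vertical axes) of Xbp1, Derl3, Mzb1 and Irf4 against the percent of counts in 20 salivary genes (horizontal axes), 1 point per library. WT_DTH libraries lie at 1.86 to 2.94% and WT_se libraries at 6.16 to 13.5%. KO_se libraries, at 2.49 to 6.13%, and KO_DTH libraries, at 4.04 to 9.42%, overlap with these ranges or fall between them. The 4 lowest points of Xbp1 are the KO_se libraries (106, 114 and 144 CPM) and WT_DTH replicate 3 (135 CPM).

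In KO_se against WT_se the folds were nearer to their values without covariates. With the 2 components Mzb1 was at 1.15 ± 0.26 (edgeR adjusted p = 0.0645), Sdc1 at 0.80 ± 0.19 (0.0749), Irf4 at 0.58 ± 0.15 (0.0963), Prdm1 at 1.02 ± 0.37 (0.229), Creld2 at 0.44 ± 0.18 (0.289) and Xbp1 at −0.68 ± 0.18 (0.102). None passed in that fit by edgeR, 0 of 9 against 6 of 9 without covariates, while the direction of each of these 6 was the same. Of all 20034 genes 220 passed with the components and 1035 without covariates. Derl3 gave 0.29 ± 0.28 with the components and −0.39 without. With the most salivary-rich library of every group dropped, Mzb1 (1.49) and Sdc1 (0.81) still passed in KO_se against WT_se, and Prdm1 (1.95) and Derl3 (−1.26) in WT_DTH against WT_se.

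**Figure D5:**
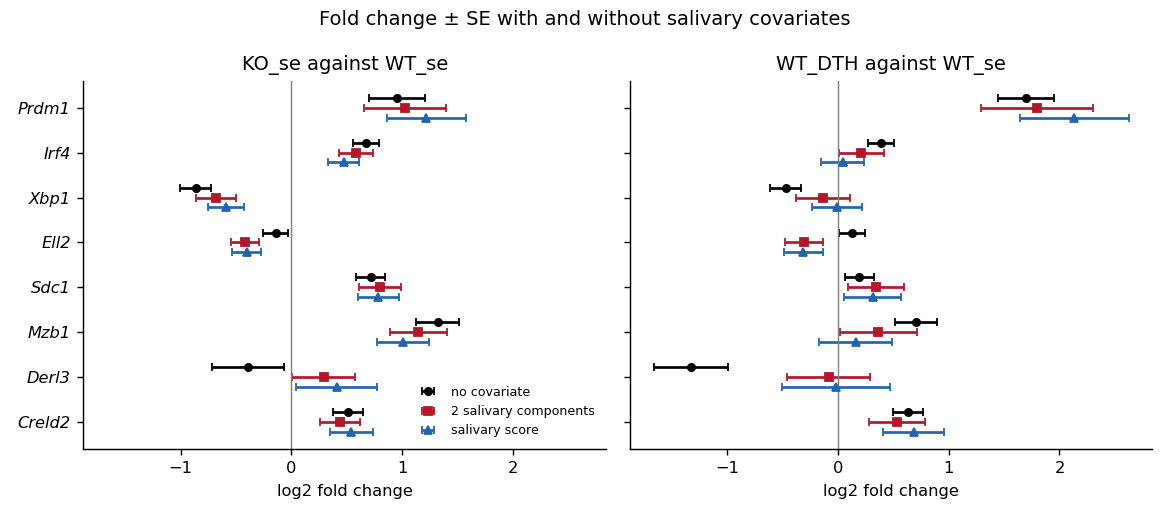
Log2 fold change ± SE (horizontal axes) of 8 of the 9 genes in KO_se against WT_se and WT_DTH against WT_se, without covariates and with 2 salivary components or 1 salivary score in the model. Derl3 in WT_DTH against WT_se moves from −1.33 to −0.08 and −0.02, while Mzb1 in KO_se against WT_se stays between 1.00 and 1.32.

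The genes most like each of the 9 across the 12 libraries were sought among 11981 tested genes, by the root mean square difference of log2 CPM after centring each gene on its own mean. All libraries share the group structure and the gland content, so likeness is only a description. Nearest to Tnfrsf17 were Jchain (0.575), Ighg1 (0.696) and Ighg2b (0.773). The Tnfrsf17 profile rests on few counts, 74 of them in KO_se, the group through which it passed the filter, so nothing is drawn from its likeness. Nearest to Mzb1 were Bfsp2 (0.174), Myl4 (0.183) and the κ light chain constant gene Igkc (0.183). Nearest to Irf4 were Fbxo5 (0.115), Nudt5 (0.116) and Timeless (0.118), of which Fbxo5 and Timeless encode cell cycle proteins. Nearest to Sdc1 were Nqo2, BC004004 and Fh1 (0.129 to 0.137). Nearest to Prdm1 were Pla2g4a (0.244), Lgals3 (0.256) and Ccr2 (0.258), the last 2 being genes of macrophages and inflammatory monocytes. Nearest to Xbp1 were Arrdc4, Il11ra1 and Klf3 (0.167 to 0.196), to Derl3 Acacb, Atp1b1 and Lmo7 (0.204 to 0.235), to Creld2 Amdhd2, Glrx and Tspo (0.121 to 0.122) and to Ell2 Cnot6l, Kpna1 and Ezr (0.067 to 0.076). The heavy chain constant genes resemble each other closely in sequence, so their counts may share reads.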

How the data were processed

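RNA of 12 mandibular lymph node libraries was sequenced, 3 in each of 4 groups read from the labels. Per the labels, an RNeasy kit gave the total RNA and a directional NEBNext kit the libraries. The authors deposited estimated counts, 1 value per gene and library, all of them whole numbers, so none was rounded. Per the submitters' processing notes, fastp 0.23.2, HISAT2 2.2.1, StringTie 2.2.1 and GRCm39 were used; the annotation release and the strand setting of counting are not given in the sources used here. Symbols came from GENCODE M21 (51948 of 56941 IDs matched) and promoter windows from RefSeq on GRCm38.p6, whose coordinates were not set against those of the deposited files. All 234 entries of the 9 genes and 20 further lists matched, 1 by synonym.

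The test was that of edgeR 4.0.16 (quasi-likelihood, TMM, filterByExpr with a minimum count of 10) in 1 model with a mean per group over all 12 libraries, leaving 8 residual degrees of freedom, two-sided, with Benjamini-Hochberg adjustment over 20034 genes. SEs are those of the model. Replicates differed by more than counting noise (chi-squared of 41.0 to 332 for each degree of freedom), so none was counted as a duplicate. Likeness used genes with a mean of at least 50 counts and a prior count of 2. Alternatives used DESeq2 1.42.0 in R 4.3.3, and figures matplotlib 3.10.9 in Python 3.11.15. The 9 genes, the lists, the covariates and the alternatives were chosen with earlier results of these data known. Named list genes are up to 4 called members per list and comparison, by smallest p, plus genes a result turned on; Dnajc3, Dnajb9 and Bhlha15 are named for their direction or role.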

Additional observations from a re-analysis of the deposited data

Results flagged for a closer look

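For 3 of the 9 genes the response to challenge differed between genotypes by the interaction term of the edgeR fit. Xbp1 gave 1.13 in log2 (challenge effect in the knockout minus that in wild type), Mzb1 −1.23 and Irf4 −0.69. Their edgeR adjusted p-values were 0.0237, 0.038 and 0.0494. Of 20 salivary genes 12 rose in the same interaction. With the salivary score as a covariate the values were 0.50, −0.52 and −0.23 in the same order, and no gene of 20034 passed by edgeR (1045 at an unadjusted p below 0.05).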

How the results depend on the processing

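Of the 9 genes, the number called changed by over 1.5 times under these settings, given by comparison. In KO_se against WT_se it went from 6 to 0 with either salivary covariate and to 2 without the libraries of largest salivary share, and leaving out 1 library gave 4 to 5. In WT_DTH against WT_se it went from 6 to 0 with either covariate and to 2 without those libraries, and 1 library left out gave 2 (without WT_DTH replicate 3) to 5. In KO_DTH against KO_se it went from 1 to 2 with a mean of at least 50 counts or only the libraries compared, to 3 by the DESeq2 Wald test and to 0 with either covariate or without those libraries, and 1 library left out gave 0 (without KO_se replicate 2) to 3 (without KO_DTH replicate 3). For the interaction it went from 3 to 1 with the replicate block and to 0 with either covariate or without those libraries, and 1 library left out gave 0 to 3. In KO_DTH against WT_DTH it was 0 in every setting. Calls over all genes fell too with the components or the score. In KO_se against WT_se they went from 1035 to 220 or 218, and in WT_DTH against WT_se from 3755 to 157 or 205. Without the libraries of largest salivary share they were 351 and 2464 in the same order. The covariates leave fewer residual degrees of freedom and larger SEs. Deviations of same-numbered libraries correlated at −0.0984 to 0.141, not over 0.1 in every pair, so the numbers were not used as pairs. Within a state, KO and WT libraries of the same number correlated at 0.0429 to 0.141 and each library most with its own number, a hint from the data and not from the labels. With the block Xbp1 alone passed in the interaction, and the block also ended the Prdm1 and Creld2 calls in KO_se against WT_se (edgeR adjusted p = 0.0598 and 0.0695) and no other call.

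Folds that changed sign were not called in any setting. With the 2 salivary components these were Derl3 in KO_se against WT_se (0.29) and in the interaction (−0.039), Prdm1 (−0.13) and Ell2 (0.22) in KO_DTH against WT_DTH, Ell2 in WT_DTH against WT_se (−0.30), in KO_DTH against KO_se (0.34) and in the interaction (0.64), and Creld2 in the interaction (0.12). With the salivary score they were Derl3 in KO_se against WT_se (0.41), in KO_DTH against WT_DTH (−0.13) and in the interaction (−0.54), Prdm1 (−0.29), Xbp1 (−0.0911), Irf4 (0.24) and Ell2 (0.0565) in KO_DTH against WT_DTH, and Ell2 in WT_DTH against WT_se (−0.31), in KO_DTH against KO_se (0.15) and in the interaction (0.46). Without the libraries of largest salivary share Irf4 in KO_DTH against WT_DTH was 0.0041, and with library sizes counted without salivary and mitochondrial genes Derl3 in KO_DTH against KO_se was 0.00054. Without 1 library, KO_DTH against WT_DTH gave −0.30 to 0.24 for Prdm1, −0.19 to 0.0704 for Irf4 and −0.10 to 0.19 for Mzb1, and KO_DTH against KO_se gave −0.63 to 0.24 for Derl3 and −0.13 to 0.0516 for Ell2. Of all refitted folds of single genes 535 kept their direction and side of the threshold, 105 lost a call, 6 gained one and 34 changed sign. Tnfrsf17 had too few counts for a fold and was not refitted. The 3 libraries a group limit each p, and the cause of the lost calls was not tested.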
